A study of Homo sapiens with 4 samples.

Results

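The genes of the lysosomal membrane, the vacuolar proton pump and the cathepsins were followed in A673, a human cell line from Ewing sarcoma with an EWSR1-FLI1 fusion. Members were all genes in the deposited tables whose symbol begins with ATP6V, or is one of LAMP1 to LAMP5, a cathepsin (CTS and a letter), MCOLN1 to MCOLN3, NPC1 or NPC2. This gave 48 of the 23228 genes, taken by name alone. The rule itself was set with earlier results of these data known. Of the 48, 38 had enough reads to be tested and 10 did not. A673 cells grown in medium with serum had received either a scrambled control siRNA or an siRNA against the atypical cadherin FAT4, carried in with the lipid reagent RNAiMAX, which all 4 groups therefore saw. RNA was taken 24 h or 48 h later, a single library per siRNA and time point, and no untransfected cells and no replicate cultures stand behind any value. Whether the FAT4 siRNA was a single sequence or a pool is not given in the sources used here.

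A lysosome digests material in an acid lumen. The acid is made by the V-ATPase, in which a V1 sector in the cytosol splits ATP and turns a V0 sector in the membrane that carries protons inward. The LAMP glycoproteins coat the inner face of the membrane, the mucolipin channels release calcium from the lumen, NPC1 and NPC2 pass cholesterol out, and the cathepsins are the proteases that work inside. Many of these genes share a short E-box element in their promoters that is read by the transcription factors TFEB and TFE3 when cells starve or lysosomes are damaged.

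Gene counts summed to between 15196813 and 22625833 per library. Levels are given as CPM (each gene's share of a library's reads, scaled to a common total) after TMM scaling, and ratios of 2 libraries carry exact 95% intervals that cover counting error only. Changes over both times or both siRNAs come from an edgeR quasi-likelihood fit across 13712 genes with siRNA and time as additive terms. A gene was called at a Benjamini-Hochberg adjusted p under 0.05. The fit has 1 residual degree of freedom, so its p-values do not measure the spread between cultures. The targeted gene FAT4 was at 165 CPM (24 h) and 149 CPM (48 h) in the controls, and at 71.8 and 60.2 CPM in the FAT4 siRNA libraries. Of 7 markers of Ewing sarcoma, 6 lay between 38.4 and 211 CPM in every library, and CD99 was listed at 0 in all 4. A listed 0 cannot tell an absent transcript from reads that were not counted, and this was not tested. Some of these markers moved with the siRNA: NKX2-2 fell by 0.85, PAX7 by 0.49 and NR0B1 by 0.29 on the log2 scale with the FAT4 siRNA, and LIPI rose by 0.31. Their part in the results was not tested. All 6 macrophage markers stayed under 1 CPM, with a summed level of 0.703 to 1.12 CPM. Of 4 epithelial markers, EPCAM and CDH1 stayed under 1 CPM, while KRT8 and KRT18 lay between 14.6 and 191 CPM, and KRT8 fell by 0.52.

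The lysosomal membrane glycoproteins were higher with the FAT4 siRNA, and among members above 5 CPM on average LAMP1 and LAMP2 had the highest fold changes. In the fit over both times LAMP1, LAMP2 and LAMP3 were each called higher with the FAT4 siRNA, by 1.75, 2.12 and 2.0 fold. For LAMP3 the ratio was 1.08 at 24 h, with an interval that held 1, and 2.68 at 48 h. Most pump subunits and most cathepsins were not called. Over all members, 8 of 38 tested were called higher and 5 lower, that is 21.1% and 13.2%. One of the 5 is CTSH, which was testable through its control levels alone, and without it 4 of 37 were lower. Among all genes tested, 11.9% were called higher and 14.1% lower. The median log2 fold change was 0.01 over the members and -0.01 over all genes. In bulk RNA, fewer cells of a type and less RNA per cell cannot be told apart.

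LAMP2 is the membrane protein needed for fusion of autophagosomes with lysosomes and, in its A form, for chaperone-mediated autophagy. Its level was 75.7 CPM (24 h) and 76.6 CPM (48 h) in the controls, and 151 and 173 CPM in the FAT4 siRNA libraries. Both FAT4 siRNA libraries stood above both controls, and the controls were alike. The ratio was 1.99 at 24 h (interval 1.87 to 2.12) and 2.26 at 48 h (2.12 to 2.41). LAMP2 rose by 1.08 on the log2 scale over both times (SE 0.0962, edgeR adjusted p = 3.35e-26).

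LAMP1, the most abundant lysosomal membrane glycoprotein in many cells, was at 174 CPM in control 24 h and 121 in control 48 h, against 264 and 245 CPM with the FAT4 siRNA. The groups did not overlap, and the lowest value of all was control 48 h. The ratio was 1.52 at 24 h (interval 1.45 to 1.59) and 2.02 at 48 h (1.92 to 2.13). LAMP1 rose by 0.81 over both times (SE 0.0918, edgeR adjusted p = 3.69e-16). Per kilobase of transcript, LAMP1 had 2.12 to 3.43 times the level of LAMP2 in the 4 libraries. The sum of LAMP1 and LAMP2 was 83.1 and 64.0 CPM per kilobase in the controls and 135 and 134 with the FAT4 siRNA.

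LAMP3, an inducible LAMP found in dendritic cells and in stressed or hypoxic tumour cells, was scarce. It was at 1.57 CPM (24 h) and 4.03 CPM (48 h) in the controls, and at 1.69 and 10.8 CPM in the FAT4 siRNA libraries. Only the last library stood clear of the rest. The ratio of the siRNAs was 1.08 at 24 h (interval 0.619 to 1.86) and 2.68 at 48 h (2.05 to 3.54). Over both times LAMP3 rose by 1.0 on the log2 scale (SE 0.257, edgeR adjusted p = 0.00106), a mean that the 48 h libraries carry. Whether the ratio differed between the times could not be tested, since 4 libraries leave no residual for such a term.

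**Figure D1:**
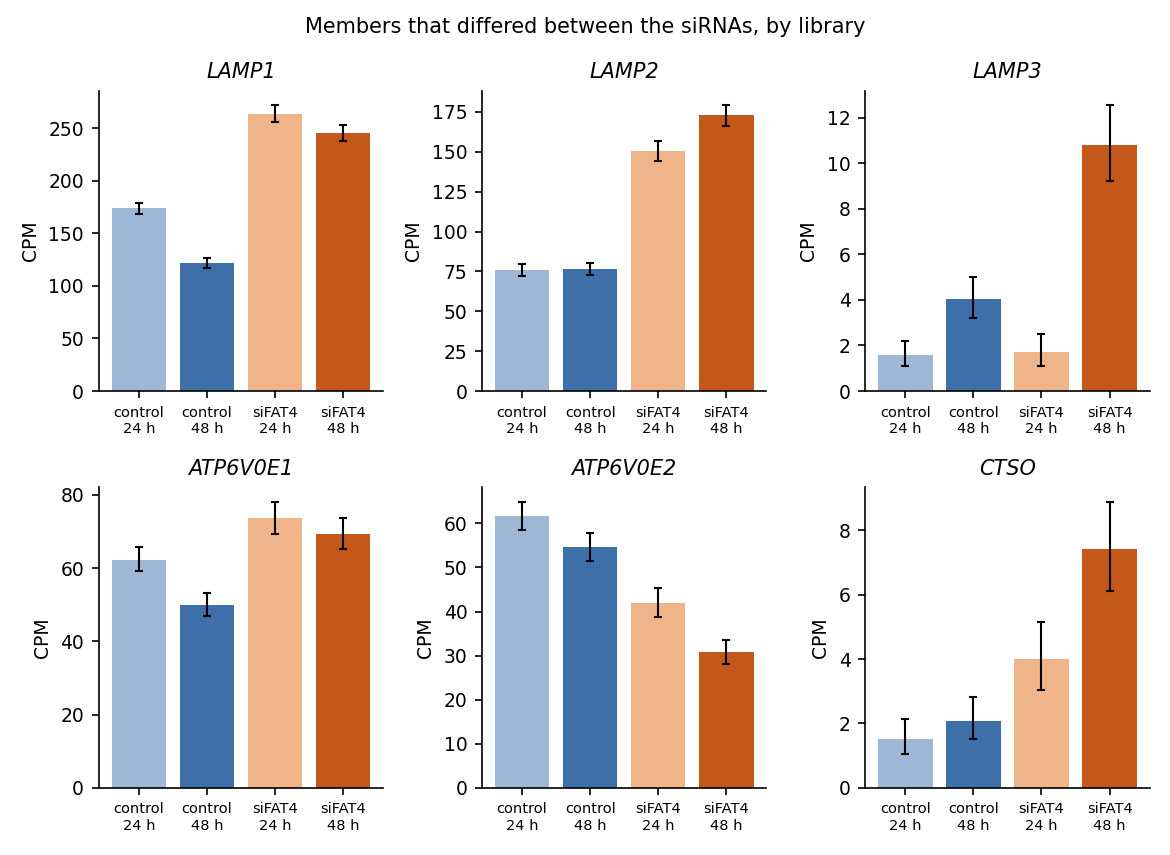
Level in CPM (vertical axis, from 0, scaled separately for each gene) of 6 members in the 4 libraries, with exact 95% Poisson intervals of the counts as error bars. LAMP1 and LAMP2 are above both controls at both times, LAMP3 reaches 10.8 CPM in FAT4 siRNA 48 h alone, ATP6V0E1 and ATP6V0E2 move apart, and CTSO reaches 7.42 CPM in FAT4 siRNA 48 h.

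The LAMP calls held under every alternative scaling and filter tried and after a correction for GC content and transcript length, when LAMP1 rose by 0.86, LAMP2 by 0.89 and LAMP3 by 0.94 on the log2 scale. DESeq2 with the same terms called LAMP1 and LAMP2 and gave no adjusted p for LAMP3. A fit without the time term called none of the members. Base composition also went with the siRNA ratio over all genes, with values given at the end, and LAMP2 had a transcript GC content of 37.7%, LAMP1 of 55.2% and LAMP3 of 45.0%. The word AGCCTTA in 3' UTRs was picked in an earlier look at these libraries by the siRNA ratios themselves, so its direction is a description: the median log2 fold change was 0.08 over genes with it and -0.03 over genes without. Among 37 members with a searchable 3' UTR, 3 held that word, or 8.11% against 10.1% of 12312 genes: LAMP1, ATP6V1G1 and ATP6V0A2. The site in the LAMP1 3' UTR is shown here, with the word in capitals, because LAMP1 was called higher, a choice made by its own ratio.
LAMP1 site: cagatttaAGCCTTAcaaaggga
ATP6V1G1 held the word at base 457 of its 3' UTR, and ATP6V0A2 at bases 1008 and 3220. ATP6V1G1 had a log2 fold change of -0.07 and ATP6V0A2 of 0.15, and neither was called, so the word went with a call in 1 of the 3 members. ATP6V0A2 also held TTGGACT and was the only member with it or its overlapping form TGGACTA (2.7% of members, 14.7% of genes). That word was picked the same way, and the median was -0.06 over genes with either form and -0.01 over genes without. The 3' UTRs of LAMP2, LAMP3 and ATP6V0E2 held none of these words. The part of such sites in the LAMP1 result was not tested.

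Promoter windows of 31 members were found in the RefSeq table of build GRCh38.p14, each from 250 bases before to 50 bases after an annotated start. Of 9 members whose windows carry an E-box, LAMP1 and 4 others are printed, all of them called lower from 24 h to 48 h. The carriers not printed are ATP6V0E2, also called lower in time, and ATP6V1G1, CTSD and CTSF, not called in time. The printed windows therefore do not show how the element goes with time. The E-box is CACGTG, the core of the element that TFEB and TFE3 bind. It is a palindrome, so both strands read alike, and it is in capitals.
LAMP1, chr13:113296989-113297288, plus strand: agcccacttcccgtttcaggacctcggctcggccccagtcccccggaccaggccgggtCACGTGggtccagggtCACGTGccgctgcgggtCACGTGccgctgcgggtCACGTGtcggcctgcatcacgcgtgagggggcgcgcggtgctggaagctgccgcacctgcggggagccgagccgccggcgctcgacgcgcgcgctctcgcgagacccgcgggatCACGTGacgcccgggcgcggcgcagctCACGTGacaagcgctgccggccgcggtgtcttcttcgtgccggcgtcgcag
ATP6V0B, chr1:43974710-43975009, plus strand: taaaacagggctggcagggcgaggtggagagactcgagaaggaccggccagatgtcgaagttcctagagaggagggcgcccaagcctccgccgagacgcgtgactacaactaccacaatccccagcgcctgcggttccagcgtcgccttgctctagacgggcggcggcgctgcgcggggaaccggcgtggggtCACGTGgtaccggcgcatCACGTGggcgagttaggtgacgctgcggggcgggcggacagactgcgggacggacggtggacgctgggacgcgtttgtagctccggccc
ATP6V0D1, chr16:67481108-67481407, minus strand: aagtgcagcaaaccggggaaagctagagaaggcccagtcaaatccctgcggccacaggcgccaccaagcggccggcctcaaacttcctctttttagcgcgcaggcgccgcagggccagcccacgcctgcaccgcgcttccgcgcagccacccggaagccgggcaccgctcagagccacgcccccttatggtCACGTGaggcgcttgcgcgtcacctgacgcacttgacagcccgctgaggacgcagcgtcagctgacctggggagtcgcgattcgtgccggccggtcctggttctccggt
CTSA, chr20:45891085-45891384, plus strand: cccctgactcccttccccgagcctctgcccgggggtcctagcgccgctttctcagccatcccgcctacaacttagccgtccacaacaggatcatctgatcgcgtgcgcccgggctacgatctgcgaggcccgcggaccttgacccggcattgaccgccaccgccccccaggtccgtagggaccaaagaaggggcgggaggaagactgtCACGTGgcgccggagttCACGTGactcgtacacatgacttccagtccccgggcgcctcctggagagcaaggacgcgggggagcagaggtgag
MCOLN1, chr19:7522374-7522673, plus strand: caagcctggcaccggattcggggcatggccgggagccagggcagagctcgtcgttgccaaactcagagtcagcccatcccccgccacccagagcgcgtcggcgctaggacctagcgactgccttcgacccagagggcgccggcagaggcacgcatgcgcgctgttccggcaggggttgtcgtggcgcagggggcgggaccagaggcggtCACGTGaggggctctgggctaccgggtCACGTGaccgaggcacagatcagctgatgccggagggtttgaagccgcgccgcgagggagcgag
The LAMP1 window held 6 copies, whose first bases lay at -192, -176, -159, -142, -28 and -1 from the start, so that the last of them spans it. ATP6V0B, CTSA, CTSF and MCOLN1 held 2 each, and ATP6V0D1, ATP6V0E2, ATP6V1G1 and CTSD held 1. A further window of ATP6V0E2, chr7:149873719-149874018, held none. In all 9 members at least 1 copy was preceded by T on one strand (TCACGTG, which contains CACGTG). The E-box occurred in 9 of the 31 members (29%) and in 8.77% of all genes in the table, and TCACGTG in the same 9 members and in 4.49% of all genes. LAMP2 and LAMP3 were not among the 31.

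**Figure D2:**
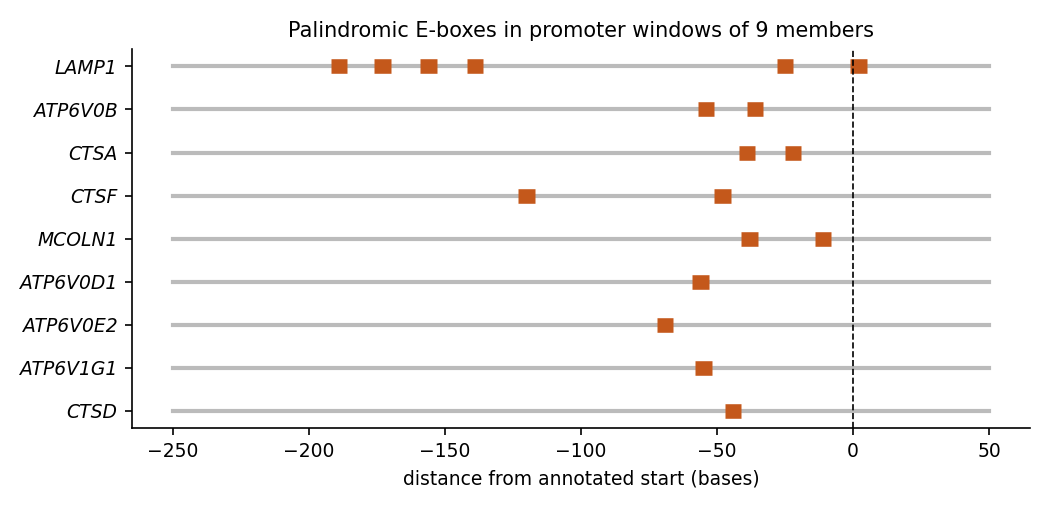
Positions of palindromic E-boxes (filled blocks, 6 bases wide) in the promoter windows of the 9 members that hold one, with the distance from the annotated start in bases on the horizontal axis and the start as a dashed line. LAMP1 has 6 copies, 4 of them at -142 or further upstream, and the other members have 1 or 2. For ATP6V0E2, which has more than 1 annotated start, 1 window is drawn, and another of its windows holds no E-box.

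Carrying an E-box did not go with 1 direction between the siRNAs. Of the 9 members with it, LAMP1 and ATP6V0B were called higher with the FAT4 siRNA and ATP6V0E2 and CTSD lower, with a median log2 fold change of -0.07. Of the 16 tested members whose windows lacked it, 1 was called higher and 2 lower, with a median of -0.10. The 2 lower are CTSZ and CTSH. CTSH was testable through its control levels alone, so it had to be lower, and it counts in the median too. Of all genes 11.9% were called higher and 14.1% lower. The calls of ATP6V0B and CTSD were lost with DESeq2, and that of CTSD also after the GC and length correction. Between the times, 6 of the 9 were called lower at 48 h and 0 higher, with a median of -0.31. Of the 16 tested members whose windows lacked it, 4 were called lower and 0 higher, with a median of 0.08. The members called higher in time (LAMP3, ATP6V1E2, CTSS, CTSO and CTSK) had no window in the RefSeq table. The 0 higher in both sets was therefore fixed by which members had a window. Of all genes 12.8% were called lower in time and 13.8% higher. DESeq2 called 2 of the 6 lower, ATP6V0B and ATP6V0D1. The 2 sets also differed in base composition, with median transcript GC contents of 60.1% and 49.6%. Whether they differ was not tested.

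In the proton pump the isoforms of a small V0 subunit were called in opposite directions between the siRNAs. The fall held with DESeq2 and after the GC and length correction, and the rise did not. Of 22 genes for pump subunits 18 were tested, and 4 of these rose (22.2%, against 11.9% of all genes) and 1 fell (5.56%, against 14.1%) with the FAT4 siRNA, with a median log2 fold change of 0.05. DESeq2 called 0 higher and 1 lower. After the GC and length correction 1 was called higher and 2 lower, ATP6V0E2 and ATP6V1G1. The call of ATP6V1G1 was absent from the main fit. The summed level of the V0 genes was 562 CPM in control 24 h and 539 in FAT4 siRNA 24 h, and 419 and 454 CPM at 48 h. The V1 genes summed to 823 and 884 CPM at 24 h and to 757 and 786 CPM at 48 h.

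ATP6V0E2 and ATP6V0E1 encode alternative forms of the e subunit, a small membrane protein of V0. ATP6V0E2, the form typical of brain, was at 61.6 CPM in control 24 h and 54.6 in control 48 h, against 41.9 and 30.8 CPM with the FAT4 siRNA. It was lower in both FAT4 siRNA libraries than in either control. The ratio was 0.680 at 24 h (interval 0.617 to 0.748) and 0.564 at 48 h (0.505 to 0.628), and ATP6V0E2 fell by 0.69 on the log2 scale (SE 0.114, edgeR adjusted p = 7.33e-08). ATP6V0E1, the widespread form, was at 62.3 and 49.96 CPM in the controls and at 73.7 and 69.4 CPM with the FAT4 siRNA at 24 h and 48 h. The groups did not overlap, and ATP6V0E1 rose by 0.36 (SE 0.105, edgeR adjusted p = 0.00489). Per kilobase of transcript the level of ATP6V0E1 was 1.16 and 1.05 times that of ATP6V0E2 in the controls and 2.02 and 2.596 times with the FAT4 siRNA. Their sum was 80.9 CPM per kilobase in control 24 h and 76.8 in FAT4 siRNA 24 h, and 68.0 and 67.1 at 48 h, so the sum differed less between the siRNAs than between the times. ATP6V0E2 was also called lower by DESeq2 and after the GC and length correction. The rise of ATP6V0E1 was not called, with DESeq2 adjusted p = 0.0859 and edgeR adjusted p = 0.114 after that correction. Transcript GC content was 44.1% for ATP6V0E1 and 60.6% for ATP6V0E2, and its part in their difference was not tested.

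Of the remaining V0 genes, ATP6V0B, which encodes the c'' proteolipid of the rotor ring, was called. It was at 122 CPM (24 h) and 81.0 CPM (48 h) in the controls, and at 129 and 109 CPM in the FAT4 siRNA libraries, so the groups overlapped. Its ratio was 1.06 at 24 h (interval 1.0 to 1.13) and 1.35 at 48 h (1.26 to 1.44), and it rose by 0.25 (SE 0.0959, edgeR adjusted p = 0.0346), a call that was lost with DESeq2 and when total counts alone set the scale. ATP6V0C, the c proteolipid and the main part of the ring, had a log2 fold change of -0.24 and missed the threshold (edgeR adjusted p = 0.0575). Its levels were 117, 86.9, 91.6 and 80.2 CPM in control 24 h, control 48 h, FAT4 siRNA 24 h and FAT4 siRNA 48 h. ATP6V0C has processed pseudogene copies, so its counts may be split. The a subunits ATP6V0A1 and ATP6V0A2, which hold the proton path, and the d subunit ATP6V0D1, which couples the ring to the stalk, had log2 fold changes of 0.04 to 0.15 and were not called.

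In the V1 sector ATP6V1D and ATP6V1C1 were called. ATP6V1D, part of the central shaft, was at 125 CPM (24 h) and 102 CPM (48 h) in the controls, and at 153 and 129 CPM in the FAT4 siRNA libraries, above both controls in each FAT4 siRNA library. It rose by 0.32 (SE 0.0946, edgeR adjusted p = 0.00517). ATP6V1C1, the subunit that controls the joining of V1 to V0, was at 83.6 and 79.1 CPM in the controls and at 111 and 88.3 CPM with the FAT4 siRNA. ATP6V1C1 rose by 0.28 (SE 0.0980, edgeR adjusted p = 0.0191), and its ratio was 1.33 at 24 h (interval 1.24 to 1.42) and 1.12 at 48 h (1.04 to 1.20). After the GC and length correction neither was called (adjusted p = 0.0706 and 0.192), nor by DESeq2. The catalytic subunits ATP6V1A and ATP6V1B2 had log2 fold changes of 0.12 and -0.01, and the stator subunits ATP6V1E1 and ATP6V1G1 of 0.01 and -0.07. None of these passed the test in the main fit, and ATP6V1G1 was called lower after the correction (log2 fold change -0.24).

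Per kilobase of transcript, the V1 genes highest on average were ATP6V1G1 at 122 CPM, ATP6V1F at 98.5 and ATP6V1D at 68.9, and the highest V0 genes were ATP6V0B at 84.9, ATP6V0C at 80.0 and ATP6V0E1 at 44.6. ATP6V1G1 was at 135, 134, 134 and 123 CPM in control 24 h, control 48 h, FAT4 siRNA 24 h and FAT4 siRNA 48 h, a narrow range. ATP6V1F, another shaft subunit, was at 77.1 and 68.9 CPM in the controls and at 62.5 and 69.0 CPM with the FAT4 siRNA, and only FAT4 siRNA 24 h stood below the rest. The widespread isoforms outweighed the tissue-restricted ones: per kilobase ATP6V1B2 stood 39.8 to 68.5 times above the kidney form ATP6V1B1, and ATP6V1G1 74.9 to 133 times above the neuronal form ATP6V1G2. ATP6V1G2 counts are uncertain, because a read-through transcript joins it to DDX39B and DDX39B itself had 2 to 8 reads per library.

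**Figure D3:**
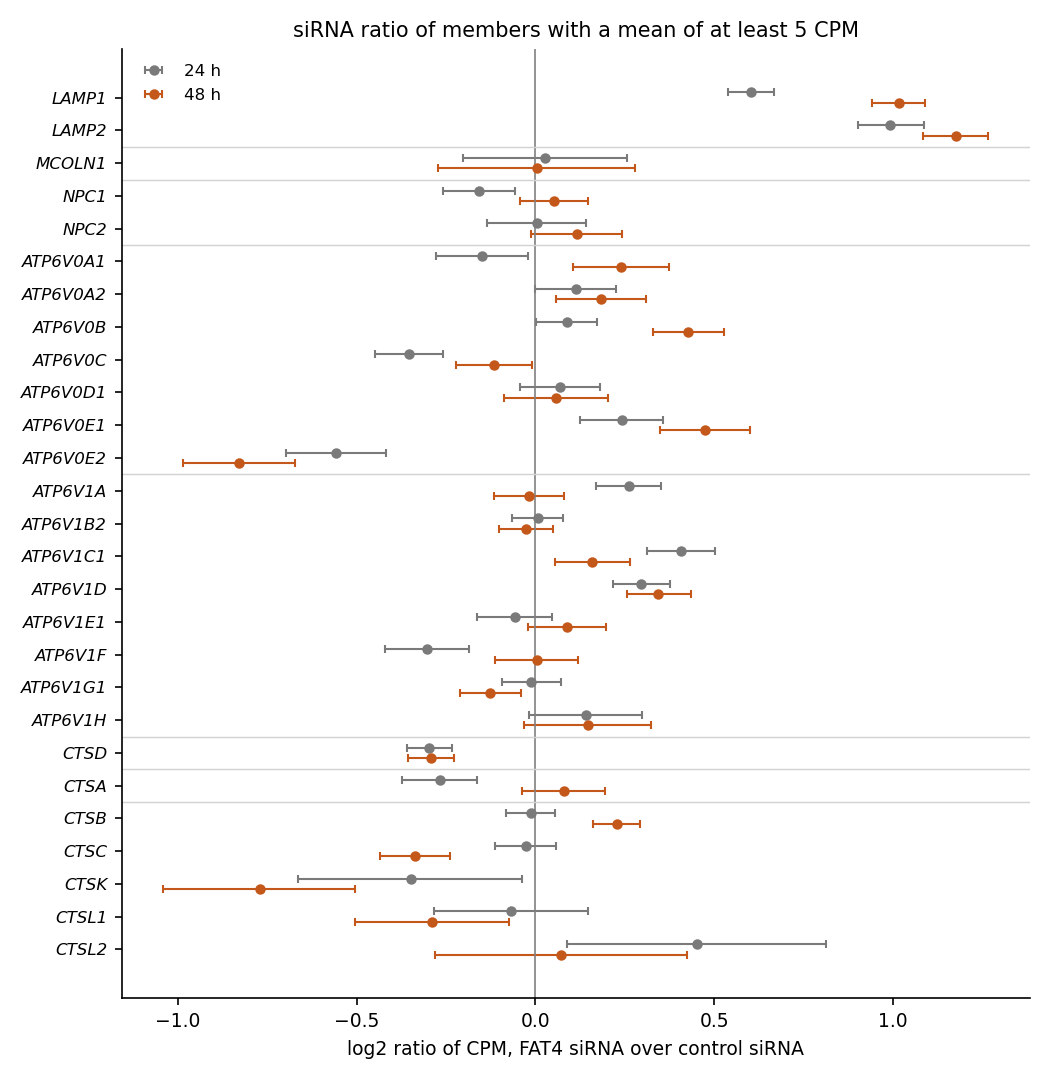
Log2 ratio of CPM, FAT4 siRNA over control siRNA (horizontal axis), at 24 h and 48 h for the 27 members with a mean of at least 5 CPM, by role, with exact 95% counting intervals as bars. LAMP1 and LAMP2 stand to the right at both times, ATP6V0E2, CTSD and CTSK to the left, and most pump subunits lie near 0.

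Among the cathepsins, 12 of 16 were tested, and 4 fell (33.3%, against 14.1% of all genes) and 1 rose (8.33%, against 11.9%) with the FAT4 siRNA. Without CTSH, 3 of 11 fell. DESeq2 called 0 in either direction, and gave no adjusted p for CTSO, CTSZ, CTSH, CTSF and CTSS, and after the GC and length correction 2 fell and 1 rose. CTSD, the main aspartic protease of lysosomes and the cathepsin with the highest level per kilobase (110 CPM on average), was at 267 CPM in control 24 h and 248 in control 48 h, against 218 and 203 CPM with the FAT4 siRNA. Its groups did not overlap, the ratio was 0.814 at 24 h (interval 0.780 to 0.850) and 0.817 at 48 h (0.781 to 0.855), and CTSD fell by 0.29 (SE 0.0902, edgeR adjusted p = 0.00732). CTSD has a transcript GC content of 64.0%, and after the GC and length correction its log2 fold change was -0.08 (edgeR adjusted p = 0.506). DESeq2 did not call it either (adjusted p = 0.0770). CTSK, the collagen-degrading cathepsin of osteoclasts and fibroblasts, was at 11.2 and 18.5 CPM in the controls and at 8.80 and 10.9 CPM with the FAT4 siRNA at 24 h and 48 h. Both FAT4 siRNA libraries were below both controls, and CTSK fell by 0.57 (SE 0.166, edgeR adjusted p = 0.00417). That call held after the GC and length correction and was lost with DESeq2 (adjusted p = 0.171).

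CTSO, a cysteine cathepsin of little known function, was low but rose the furthest of any member called between the siRNAs. Its level was 1.52 CPM (24 h) and 2.09 CPM (48 h) in the controls, and 3.99 and 7.42 CPM in the FAT4 siRNA libraries, from 34, 42, 59 and 116 reads. The ratio was 2.62 at 24 h (interval 1.69 to 4.13) and 3.55 at 48 h (2.48 to 5.19), and CTSO rose by 1.63 (SE 0.272, edgeR adjusted p = 9.07e-08). The call held after the GC and length correction, and DESeq2 gave no adjusted p for CTSO. CTSZ, a carboxypeptidase, was at 3.90 and 4.33 CPM in the controls and at 2.44 and 2.56 CPM with the FAT4 siRNA. It fell by 0.72 (SE 0.274, edgeR adjusted p = 0.0374) but was not called after the correction (adjusted p = 0.0911). CTSH, an aminopeptidase, had 16 and 25 reads in the controls and 5 in each FAT4 siRNA library. It fell by 1.55 (SE 0.583, edgeR adjusted p = 0.0350). CTSH reached the level needed for testing in the control libraries alone, so a member chosen that way had to be lower with the FAT4 siRNA, and it was not called after the correction or with the low-count filter lifted.

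The other abundant cathepsins were not called between the siRNAs. CTSC, which activates granule serine proteases, was at 124, 109, 122 and 86.3 CPM in control 24 h, control 48 h, FAT4 siRNA 24 h and FAT4 siRNA 48 h. Its log2 fold change was -0.18 (edgeR adjusted p = 0.158), and FAT4 siRNA 48 h was the lowest library. CTSB, the broad cysteine protease, was at 200, 192, 199 and 224 CPM in the same order. The carboxypeptidase CTSA, which also shields neuraminidase and beta-galactosidase, was at 94.98, 66.5, 78.9 and 70.2 CPM, and FAT4 siRNA lay inside the range of the controls. CTSB and CTSA had log2 fold changes of 0.11 and -0.10. CTSA overlaps PLTP in the annotation, so its counts could lose or gain reads there. CTSL1 and CTSL2, named CTSL and CTSV in current annotation and alike in sequence, had log2 fold changes of -0.18 and 0.26. CTSL1 was at 20.9 and 23.1 CPM in the controls and at 19.96 and 18.9 CPM with the FAT4 siRNA. CTSS, the cathepsin of antigen-presenting cells, had one of -0.54 and was not called.

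The channels and cholesterol exporters were not called between the siRNAs over both times. MCOLN1, the main calcium channel of lysosomes, was at 17.6 CPM in control 24 h and 17.9 in FAT4 siRNA 24 h, and at 12.6 and 12.7 CPM at 48 h. MCOLN2 and MCOLN3, relatives with narrower expression, had ratios near 1 at 24 h, of 0.975 (interval 0.527 to 1.77) and 1.03 (0.521 to 1.98). MCOLN2 had 31 reads in the control and 20 with the FAT4 siRNA there, and MCOLN3 had 25 and 17. At 48 h MCOLN2 had 51 reads in the control and 11 with the FAT4 siRNA, a ratio of 0.278 (interval 0.130 to 0.539). MCOLN3 had 38 and 10 reads, a ratio of 0.339 (0.150 to 0.692). Their log2 fold changes over both times were -0.91 and -0.73 (edgeR adjusted p = 0.0671 and 0.196). NPC1, the membrane cholesterol exporter, and NPC2, its soluble partner, had log2 fold changes of -0.05 and 0.06. NPC1 was at 96.0, 101.3, 86.1 and 105 CPM and NPC2 at 47.9, 54.7, 48.0 and 59.2 CPM in control 24 h, control 48 h, FAT4 siRNA 24 h and FAT4 siRNA 48 h.

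From 24 h to 48 h after transfection the membrane sector of the pump was lower. Over both siRNAs 10 of 38 tested members were called lower at 48 h and 5 higher, that is 26.3% and 13.2%, where 12.8% of all genes were called lower and 13.8% higher. The median log2 fold change was -0.04 over the members and 0.01 over all genes. In the V0 sector 5 of 7 tested genes fell and 0 rose, with a median of -0.30. In the V1 sector 1 of 11 fell and 1 rose, with a median of -0.13. With total counts alone as the scale, ATP6V0A2, ATP6V0E2 and ATP6V1D lost their calls, 7 members were called lower and 6 higher, and the split over all genes was 2330 higher and 1183 lower in place of 1892 and 1754. The siRNA and time comparisons share libraries, so their values for a member are not independent.

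ATP6V0D1 fell the furthest in the pump, from 70.9 to 43.2 CPM under the control siRNA and from 74.4 to 45.0 CPM under the FAT4 siRNA. Both 48 h libraries were below both 24 h libraries, with ratios of 0.609 (interval 0.560 to 0.662) and 0.605 (0.549 to 0.665). ATP6V0D1 fell by 0.72 on the log2 scale (SE 0.108, edgeR adjusted p = 1.52e-09). The ratios under the 2 siRNAs were alike for this gene. ATP6V0B fell by 0.42 (SE 0.0960, edgeR adjusted p = 1.97e-04), with a ratio of 0.666 under the control siRNA and 0.844 under the FAT4 siRNA. DESeq2 called both of these lower as well. ATP6V0C, ATP6V0A2 and ATP6V0E2 fell by 0.32, 0.28 and 0.30, each with ratios below 1 under both siRNAs and none called by DESeq2. ATP6V0A2 was at 69.2, 55.5, 74.8 and 63.0 CPM in control 24 h, control 48 h, FAT4 siRNA 24 h and FAT4 siRNA 48 h, and ATP6V0E2 was not called in time after the GC and length correction (adjusted p = 0.0603). In the V1 sector ATP6V1D fell by 0.27. ATP6V1E2, a form known from testis, rose by 1.35 (SE 0.392, edgeR adjusted p = 0.00430), from 15 to 38 reads under the control siRNA and from 15 to 37 under the FAT4 siRNA. It overlaps RHOQ in the annotation, which had 361, 413, 382 and 650 reads in control 24 h, control 48 h, FAT4 siRNA 24 h and FAT4 siRNA 48 h.

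Outside the pump, MCOLN1 fell by 0.49 (SE 0.153, edgeR adjusted p = 0.00852), with ratios of 0.718 (interval 0.610 to 0.842) under the control siRNA and 0.706 (0.584 to 0.852) under the FAT4 siRNA. CTSA fell by 0.35 and CTSC by 0.34. For CTSA the ratio was 0.700 (interval 0.654 to 0.750) under the control siRNA and 0.890 (0.819 to 0.967) under the FAT4 siRNA. For CTSC it was 0.878 (0.829 to 0.929) and 0.708 (0.660 to 0.761). LAMP1 fell by 0.31 (SE 0.0915, edgeR adjusted p = 0.00523), with a ratio of 0.699 (interval 0.664 to 0.735) under the control siRNA and 0.930 (0.890 to 0.973) under the FAT4 siRNA. LAMP2 had ratios of 1.01 and 1.15 and was not called. DESeq2 called none of MCOLN1, CTSA, CTSC and LAMP1 in time.

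The members that rose with time were of low abundance. LAMP3 rose by 2.02 (SE 0.264, edgeR adjusted p = 1.82e-12), with ratios of 2.57 (interval 1.71 to 3.94) under the control siRNA and 6.39 (4.18 to 10.2) under the FAT4 siRNA, and it was called by DESeq2. CTSS rose by 0.89, from 2.51 to 4.23 CPM under the control siRNA and from 1.49 to 3.20 CPM under the FAT4 siRNA. CTSO rose by 0.72, and CTSK by 0.54 with a ratio of 1.66 (interval 1.41 to 1.95) under the control siRNA and 1.24 (0.978 to 1.57) under the FAT4 siRNA. DESeq2 called none of these 3 in time, nor was CTSO called after the GC and length correction (adjusted p = 0.0522).

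**Figure D4:**
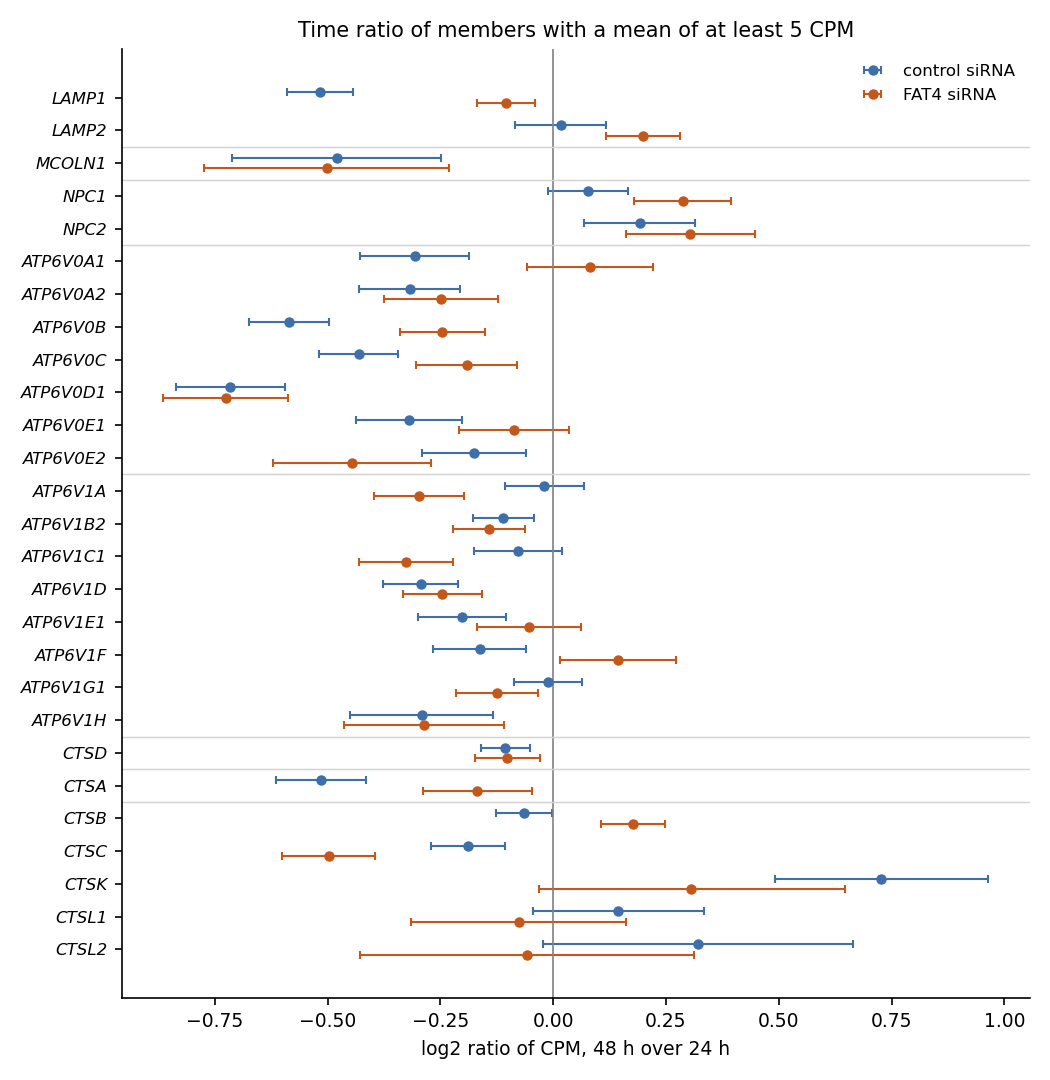
Log2 ratio of CPM, 48 h over 24 h (horizontal axis), under the control siRNA and under the FAT4 siRNA for the 27 members with a mean of at least 5 CPM, by role, with exact 95% counting intervals as bars. ATP6V0D1 and MCOLN1 lie to the left at nearly the same value under both siRNAs, LAMP1 lies further left under the control siRNA, and CTSK lies to the right.

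Other genes of the lysosome were described from lists, whose counts stand beside 11.9% of all genes called higher and 14.1% lower between the siRNAs. The V-ATPase list held assembly factors, the a3 subunit and regulators. Of its 13 tested genes 1 rose and 3 fell with the FAT4 siRNA. TCIRG1, the a3 subunit of V0, fell by 0.58, and DMXL2 and DMXL1, the rabconnectins that help V1 join V0, fell by 0.52 and 0.32. TMEM199, an assembly factor, rose by 0.31. Of 39 soluble hydrolases and activators 2 rose (5.13%) and 6 fell (15.4%), shares below and near those of all genes, with a median log2 fold change of -0.11. After the GC and length correction 4 were called higher and 7 lower, with a median of -0.01, beside 972 and 1387 of 13078 genes. The sphingomyelinase SMPD1 fell by 0.97, with 460 against 277 CPM at 24 h, then 396 against 171 at 48 h. The peptidase DPP7 fell by 0.89 and the iduronate sulfatase IDS by 0.56. The thioesterase PPT1 rose by 0.63, with 160 against 225 CPM at 24 h, then 118 against 201 at 48 h, and the glycosylasparaginase AGA rose by 0.61.

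Among 21 other lysosomal membrane proteins tested, 3 rose and 1 fell. TMEM192 and OSTM1, the partner of the chloride exchanger CLCN7, each rose by 0.63. The sialic acid exporter SLC17A5 fell by 0.38. In the list of TFEB family and nutrient-signalling genes 1 of 17 rose and 0 fell: the Ragulator subunit LAMTOR3 rose by 0.69. TFE3 was at 74.9 to 93.2 CPM and TFEB at 1.76 to 3.83 CPM, and neither was called. Of 10 genes for mannose 6-phosphate tagging and sorting 1 rose and 2 fell. The phosphotransferase GNPTAB rose by 0.56, while the sorting receptor SORT1 fell by 0.87, with 112 against 71.3 CPM at 24 h, then 160 against 75.01 at 48 h, and the adaptor subunit AP1M1 by 0.36. Of 6 cathepsin inhibitors tested 0 rose and 2 fell, cystatin C (CST3) by 0.55 and cystatin B (CSTB) by 0.32, and DESeq2 called neither. With DESeq2 the V-ATPase list had 0 higher and 2 lower, the membrane proteins 2 higher and 0 lower, and the sorting genes 1 in each direction.

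Between the times the lists went both ways, beside 13.8% of all genes called higher and 12.8% lower. In the V-ATPase list 4 of 13 tested genes rose (30.8%) and 1 fell (7.69%) at 48 h (2 and 0 with DESeq2). NCOA7, TMEM9 and OXR1 rose by 0.545, 0.48 and 0.47, and VMA21 fell by 0.31. Of the hydrolases 10 rose and 7 fell at 48 h (4 and 3 with DESeq2), with MANBA up by 1.13, AGA by 0.91 and DNASE2 by 0.79, and PPT2, SMPD1 and GLA down by 0.49, 0.45 and 0.39. Of the membrane proteins 2 rose and 5 fell (0 and 2 with DESeq2), and CLN3, the cystine exporter CTNS and CLCN7 fell by 0.61, 0.61 and 0.45. Of the signalling genes RRAGD rose by 0.60 and 4 fell, among them RRAGC, RRAGB and RRAGA by 0.38, 0.38 and 0.31, and DESeq2 called none of the 5. The inhibitor CSTA rose by 1.87, from 1.03 to 4.72 CPM and from 1.22 to 3.33 CPM.

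The siRNA ratio fell with the GC content of transcripts across 13078 genes, which are not independent replicates. The Spearman correlation was -0.51 at 24 h and -0.21 at 48 h, given as a description of libraries that share their preparation. In the quartile of genes lowest in GC the log2 ratio had a median of 0.19 (24 h) and 0.09 (48 h), and in the quartile highest in GC it was -0.27 and -0.12. LAMP2, ATP6V1A and ATP6V1C1 were in the lowest quartile, and CTSD, ATP6V0C and ATP6V0E2 in the highest. LAMP1 was in the third quartile, where the median was -0.09 at 24 h and -0.02 at 48 h, against 0.60 and 1.02 for LAMP1 itself. After the GC and length correction 972 of 13078 genes were called higher and 1387 lower. Of the 38 tested members 5 were called higher and 4 lower. Those higher were LAMP1, LAMP2, LAMP3, CTSO and ATP6V0B, and those lower were ATP6V0E2, CTSK, CTSC and ATP6V1G1. The part of base composition in the smaller changes was not tested further.

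**Figure D5:**
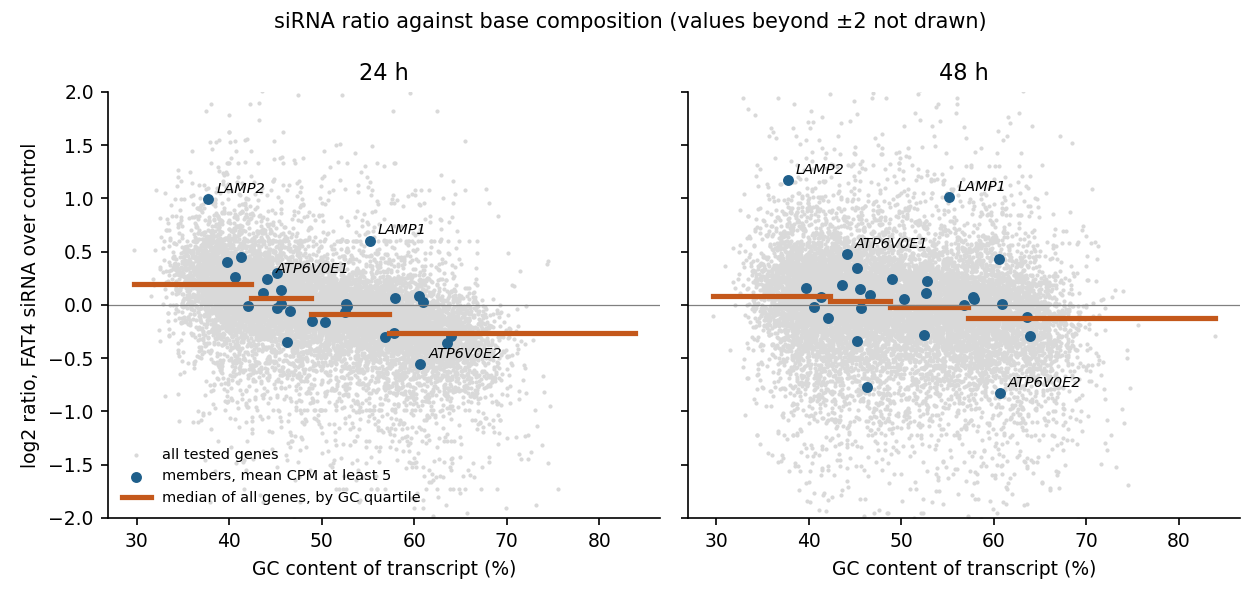
Log2 ratio of FAT4 siRNA over control (vertical axis) against transcript GC content in percent (horizontal axis) at 24 h and 48 h, for all tested genes (grey), members with a mean of at least 5 CPM (blue) and the median of all genes in each GC quartile (orange lines). At 24 h the medians step down from 0.19 to -0.27, and LAMP1, LAMP2 and ATP6V0E2 lie away from the median of their quartile at both times.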

How the data were processed

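Poly(A) RNA libraries were made with a strand-specific kit from TRIzol extracts (labels' protocols). Upstream tools were TopHat2, HTSeq, SAMtools and CASAVA 1.8.2, with build hg19, per the submitters' processing notes. The authors deposited whole-number read counts per gene, not normalized, 1 library per file. For the annotation, strand setting and counting mode nothing is stated in the labels, so counts of overlapping genes and near-identical copies are uncertain. Counter entries that name no gene were left out (reads outside genes 19.5% to 20.5% of reads assigned, ambiguous or outside genes).

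Counts were analysed with edgeR 4.0.16 in R 4.3.3: TMM scaling, filterByExpr (minimum count 10, total 15; 13712 genes), and a quasi-likelihood fit with siRNA and time as additive terms, two-sided, with Benjamini-Hochberg adjustment over all genes at 0.05. Prior degrees of freedom were infinite (common biological coefficient of variation 0.0737). The fit was tested on simulated data. Ratios of 2 libraries carry Clopper-Pearson 95% intervals. Transcript length, GC content and 3' UTRs came from GENCODE release 29 (95.4% of tested genes matched, 1 transcript per gene), and no coordinates of it are given. Promoters came from RefSeq (GRCh38.p14).

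The members and lists were chosen with earlier results of these data known. The 8 lists held 151 entries, 146 of them in the files; 1 list and some genes of the others are not reported here. Alternatives were DESeq2 1.42.0, median-of-ratios scaling, total counts alone, no low-count filter, no second term, and natural splines of GC content and length (5 and 4 degrees of freedom) as offsets. Values in all 4 libraries are given for members called in either comparison, for those with a log2 ratio of at least 0.5 in size and a mean of at least 5 CPM, and for the 3 highest per kilobase in each class. Lists are named by up to 3 called genes per direction. TFEB and TFE3, the overlapping genes and the 3' UTR words were chosen after values were seen.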

Additional observations from a re-analysis of the deposited data

Results flagged for a closer look

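In 3 members the counting intervals of the 2 ratios under the same contrast excluded 1 in opposite directions. The share of all genes that did the same was not counted, so whether 3 members is more than usual is not known. In each single ratio, 24.4% to 27.4% of all tested genes lay above 1 by this interval and 27.3% to 28.2% below. With 1 library per siRNA and time, none of the differences in the 3 members was tested. ATP6V0A1, the main a subunit of the pump outside osteoclasts and kidney, had an siRNA ratio of 0.901 (interval 0.824 to 0.985) at 24 h and 1.18 (1.08 to 1.29) at 48 h. It was at 59.5 CPM (24 h) and 48.1 CPM (48 h) in the controls, and at 53.6 and 56.7 CPM in the FAT4 siRNA libraries. ATP6V1F had a time ratio of 0.893 (interval 0.832 to 0.959) under the control siRNA and 1.11 (1.01 to 1.21) under the FAT4 siRNA. CTSB had a time ratio of 0.957 (interval 0.916 to 0.999) under the control siRNA and 1.13 (1.08 to 1.19) under the FAT4 siRNA. Each of these ratios lies within 1.2 fold of 1.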

How the results depend on the processing

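Over all genes the siRNA comparison gave 3555 calls, against 1244 with DESeq2, 2359 after the GC and length correction and 0 with no time term (1706 at an unadjusted p under 0.05). For the members the 13 calls became 3 with DESeq2 and 0 with no time term (5 at an unadjusted p under 0.05). The time comparison gave 3646 calls, against 1176 with DESeq2 and 50 with no siRNA term. Its 15 member calls became 3 with DESeq2 and 0 with no siRNA term (5 at an unadjusted p under 0.05). The cause was not tested. Counts under the remaining alternatives stayed within 1.5 times, and no called member turned its direction under the alternatives that kept both terms and gave it a value (without DESeq2 for LAMP3, CTSO, CTSZ and CTSH between the siRNAs). LAMP1, LAMP2 and ATP6V0E2 (siRNA) and ATP6V0B, ATP6V0D1 and LAMP3 (time) were called under all 5 alternatives that kept both terms, and LAMP3 and CTSO (siRNA) under the 4 that gave an adjusted p. ATP6V0C was called lower between the siRNAs with total counts alone, and NPC2 higher in time with total counts alone and after the correction. Leaving out a library leaves no residual degree of freedom and was not run. No paired analysis was possible because each group holds 1 library and the labels give no replicate numbers, beyond the time term, which compares the siRNAs within each time. At 1 library per group, depth limits the scarce members: 3 counts stand for 0.134 to 0.203 CPM.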

Other observations

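Autophagy genes, which deliver cargo to the lysosome, went both ways with the FAT4 siRNA: of 20 tested, 4 rose (20%, against 11.9% of all genes) and 6 fell (30%, against 14.1%). DESeq2 called 1 higher and 3 lower, and the GC and length correction left 2 and 4. The conjugation gene ATG12 rose by 0.48, the cargo receptor NBR1 by 0.29 and ATG5 by 0.26. MAP1LC3A fell by 0.66 and the initiating kinases ULK2 and ULK1 by 0.58 each. From 24 h to 48 h, 5 rose and 3 fell (2 and 1 with DESeq2, beside 13.8% and 12.8% of all genes), with OPTN up by 0.71, NBR1 by 0.67 and ULK2 by 0.41, and SQSTM1 down by 0.49, ATG16L1 by 0.35 and GABARAP by 0.31.

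The 10 members that were not tested were scarce in every library. ATP6V0A4, ATP6V0CP3, ATP6V1G2-DDX39B and CTSL3 had 0 counts in all 4 libraries. ATP6V0D2, the osteoclast form of the d subunit, CTSW and CTSG had 1 read each in a single library. CTSE had 8, 4, 4 and 0 reads in control 24 h, control 48 h, FAT4 siRNA 24 h and FAT4 siRNA 48 h, ATP6V1G3 had 8, 1, 7 and 5, and ATP6V1C2 had 6, 3, 4 and 2.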
